A study of Mus musculus with 9 samples.

Results

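The erythroid genes followed here are 30 genes of the red cell membrane, its transport and surface proteins, red cell enzymes, the adult globins and the erythropoietin receptor Epor. They were taken by name as erythroid genes that are neither haem enzymes nor transcription factors. The list was chosen with earlier results of these data known, so the counts below describe it and are not a test. Of the 30 names, 29 matched 1 of the 37980 genes in the count table, and 27 of these had enough counts to be tested among 11966 genes. Ahsp, which binds free alpha globin, had no match in the gene name tables and was not analysed here. Slc4a1 and Hba-a2 were counted but were too low to test. Of the 27 tested genes, 21 were lower in NA MPs past the threshold, 1 was higher, and 5 did not pass. Epb42, Trim10 and Hbb-bt passed the filter on low counts only through WT MPs, and without these 3 the counts were 19 lower, 1 higher and 4 not past among 24. Over all tested genes, 16.3% were lower and 17.9% were higher past the same threshold. The median log2 fold change was -0.93 over the 27 genes and -0.0013 over all 11966.

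Erythropoietin binds its receptor on erythroid progenitors and keeps them alive through the kinase Jak2 and the factor Stat5. As these cells mature they first make carbonic anhydrases, water channels and enzymes, and later lay down a skeleton of spectrin, ankyrin and protein 4.1 under the membrane, with the anion exchanger, the Rh proteins and large amounts of globin. Myeloid progenitors of the bone marrow include the progenitors of granulocytes, macrophages, megakaryocytes and red cells.

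The study transplanted multipotent progenitors (MPPs) into irradiated adult mice together with helper bone marrow cells, and sequenced polyA RNA from the myeloid progenitors (MPs, Lin-c-kit+Sca1-) found in the recipients' bone marrow, 100000 sorted cells a sample. The NA MPs (4 samples) came from donor MPPs with the Nup98-Hoxa10hd fusion gene (NA), the N-terminal part of Nup98 joined to the homeodomain of Hoxa10, switched on from the Rosa26 locus by Vav-Cre in blood-forming cells, and were sorted as Tdtomato+. The WT MPs (5 samples) came from mice that received WT MPPs and were sorted as CD45.2+. Both groups were of the C57BL/6 strain and were taken 3 months after transplantation by the sample labels, while the methods give a later time. The study's methods name CD45.1+ cells as WT donors in other experiments, so the origin of the CD45.2+ WT MPs, from the donor, the helper cells or the host, is not known, and the sort differed between the groups together with the genotype. The lineage antibodies were directed at red cells (Ter119), lymphocytes (B220, CD8a, CD4, CD3e and CD2) and granulocytes and macrophages (Gr1 and Mac1), and the Sca1- gate leaves out stem cells. Whether a sample was 1 mouse is not stated, so p-values measure the spread between these samples.

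Libraries held between 6602851 and 6734284 counts, so that 3 counts, the least taken as detected, were at most 0.454 counts per 1000000 counts (CPM). Hoxa10 stood at 129 ± 17.9 normalised counts in NA MPs (SD, n = 4) and 8.18 ± 2.48 in WT MPs (SD, n = 5), and Nup98 at 958 ± 82.1 and 598 ± 29.8, in the direction of the labels. Kit, which defines the sort, was at 2972 ± 134 and 3032 ± 42.8. A normalised count is the count of a gene scaled by the TMM factor and library total to the mean library. All fold changes below are NA MPs over WT MPs, and a gene passed the threshold at an adjusted p under 0.05 in edgeR's quasi-likelihood test. In bulk samples, fewer cells of a type and less RNA per cell cannot be told apart.

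Promoters are described first, and whether the words found in them relate to the fold changes was not tested. RefSeq promoters (GRCm38.p6, 250 bases before to 50 after a start site) were held for 23 members, 27 promoters in all. GATA factors bind short words, and both strands were searched for AGATAA and its variant AGATAG, as well as for TGATAA and its variant TGATAG. At least 1 such word lay in 18 of the 27 member promoters (66.7%) and in 29.8% of the 32851 promoters of the table. CACCC, the core of the word bound by KLF factors, lay in 74.1% of the member promoters and 57.5% of all. The longer CCACACC, which can overlap a CACCC, lay in 7.41% and 7.58%. Within the 100 bases before the start site, a distance chosen after the matches were seen, a GATA word lay in 8 of 27 member promoters (29.6%) and in 10.8% of all. Those 8 were of Epor, Ermap, Hemgn, Icam4, Kel, Pklr, Rhag and Rhd. All of these but Icam4 were lower in NA MPs, beside 21 of the 27 tested members as a whole. Such matches describe letters and not bound sites. The promoters of Aqp1, Tspan33, Tspo2 and Abcb10 held no GATA word, and these genes were lower past the threshold (log2 fold changes -0.97, -1.20, -0.65 and -0.20). Those of Mfsd2b and Hbb-bt held none either, and these 2 genes did not pass. The upstream parts of 4 of the 8 promoters are given 5′ to 3′, without bases that lie in an annotated exon, together with that of Mfsd2b. Capitals mark the GATA word on either strand.
Epor, chr9:21963577-21963826, minus strand: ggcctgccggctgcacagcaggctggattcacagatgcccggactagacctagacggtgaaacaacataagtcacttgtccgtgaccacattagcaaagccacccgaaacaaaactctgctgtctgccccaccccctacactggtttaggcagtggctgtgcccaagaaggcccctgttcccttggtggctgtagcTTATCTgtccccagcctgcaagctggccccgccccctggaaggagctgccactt
Ermap, chr4:119190012-119190245, minus strand: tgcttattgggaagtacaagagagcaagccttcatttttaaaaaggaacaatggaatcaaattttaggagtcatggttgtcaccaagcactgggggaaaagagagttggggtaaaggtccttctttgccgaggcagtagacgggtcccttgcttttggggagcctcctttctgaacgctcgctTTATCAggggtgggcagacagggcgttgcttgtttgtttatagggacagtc
Pklr, chr3:89135892-89136141, plus strand: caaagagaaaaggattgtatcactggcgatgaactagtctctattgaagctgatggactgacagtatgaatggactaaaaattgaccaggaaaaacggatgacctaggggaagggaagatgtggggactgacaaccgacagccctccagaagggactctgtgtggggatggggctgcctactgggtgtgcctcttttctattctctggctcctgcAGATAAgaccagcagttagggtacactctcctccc
Rhag, chr17:40810899-40811125, plus strand: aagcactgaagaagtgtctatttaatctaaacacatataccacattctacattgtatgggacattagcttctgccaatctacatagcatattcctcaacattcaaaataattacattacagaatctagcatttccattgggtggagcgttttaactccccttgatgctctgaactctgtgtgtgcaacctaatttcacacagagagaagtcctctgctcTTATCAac
Mfsd2b, chr12:4874360-4874609, minus strand: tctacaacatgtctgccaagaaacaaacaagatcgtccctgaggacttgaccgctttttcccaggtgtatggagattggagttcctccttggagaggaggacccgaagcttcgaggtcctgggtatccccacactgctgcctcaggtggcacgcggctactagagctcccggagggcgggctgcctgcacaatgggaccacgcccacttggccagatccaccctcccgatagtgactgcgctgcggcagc
The word begins at position -54 from the start site in Epor, -67 in Ermap, -35 in Pklr and -31 in Rhag, where -1 is the base before the start. The Pklr promoter shown is that of the upstream start, which gives the red cell form of the enzyme.

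Epor, the receptor itself (chr9:21958897-21963506, minus strand, GRCm38), fell to 50.4% of its WT level. Its normalised counts were 128, 114, 108 and 130.3 in NA MP replicates 1 to 4 and 250.5, 255, 231, 219.5 and 239 in WT MP replicates 1 to 5. Every NA MP sample lay below every WT MP sample, with means of 120.3 ± 10.7 (SD, n = 4) and 239 ± 14.6 (SD, n = 5). The log2 fold change was -0.99 (standard error, SE, 0.079, 95% interval -1.15 to -0.83, edgeR adjusted p = 1.13e-14). An exact two-sided permutation test on Epor gave p = 0.0159, the smallest that 4 against 5 samples allow. That p follows from the lack of overlap and adds nothing to it, and Epor was listed with earlier results of these data known.

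Genes that act downstream of the receptor were followed as a list. Of 18 tested genes of erythropoietin signalling, 9 were higher and 2 were lower past the threshold, with a median log2 fold change of 0.11. The shares over all tested genes were 17.9% higher and 16.3% lower. Socs3, a feedback inhibitor of cytokine signalling, had the largest rise (1.58, edgeR adjusted p = 0.000149) from a low level of 7.78 ± 2.28 to 23.6 ± 11.8 normalised counts. Pim1, a kinase that Stat5 induces, rose by 0.75 (edgeR adjusted p = 1.45e-06), and Bcl2l1, which protects erythroblasts from apoptosis, rose by 0.33 (edgeR adjusted p = 0.00408). The adaptor Irs2 rose by 0.30 (edgeR adjusted p = 0.0435), a call that was lost in 10 of its 17 alternatives. With library size alone as the scaling, or at an adjusted p under 0.01, 5 of the 18 were higher. These genes serve many cytokine receptors besides Epor.

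Among the genes that erythroid progenitors make early, Epor was joined by 5 others that fell, and Mfsd2b did not pass. Ermap, a surface protein of the immunoglobulin family that carries the Scianna blood group, fell the most of them. It was at 481, 394, 422 and 561 normalised counts in NA MPs and 1303, 1247, 1161, 1099 and 1155 in WT MPs. Its log2 fold change was -1.36 (SE 0.10, edgeR adjusted p = 1.83e-05), and the groups did not overlap. Aqp1, the water channel of the red cell membrane, stood at 1033, 879, 903 and 1083 against 1904 ± 100.3 in WT MPs (SD, n = 5), where its values were 2030, 1984, 1794, 1831 and 1883. Its level was thus 51.2% of WT, a log2 fold change of -0.97 (SE 0.063, edgeR adjusted p = 3.13e-07).

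The enzymes of the early class also fell. Car2, a carbonic anhydrase that interconverts CO2 and bicarbonate, was at 1518, 1220, 1316 and 1577 normalised counts in NA MPs and 2843, 2834, 2559, 2446 and 2707 in WT MPs. The log2 fold change of Car2 was -0.93 (SE 0.088, edgeR adjusted p = 9.66e-05). Car1, its paralogue, went from 2822 ± 159.9 (SD, n = 5) to 1729 ± 201 (SD, n = 4), a smaller log2 change of -0.71 (SE 0.083, edgeR adjusted p = 0.000345). Blvrb, a flavin and biliverdin reductase of red cells, was at 289, 237, 259 and 276 in NA MPs and at 482, 465, 423, 386 and 419 in WT MPs, a change of -0.72 on the log2 scale (SE 0.064, edgeR adjusted p = 2e-12). In all 3 enzymes, replicate 2 was the lowest NA MP sample, and the highest NA MP sample stayed below the lowest WT MP sample.

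Mfsd2b, which exports sphingosine-1-phosphate from red cells and platelets, was at 1139 ± 137 in NA MPs (SD, n = 4) and 1149 ± 37.8 in WT MPs (SD, n = 5). Its log2 fold change was -0.013 with a 95% interval of -0.17 to 0.14 (edgeR adjusted p = 0.912), so a fall of the size seen in the other 6 early genes lay outside its interval.

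**Figure D1:**
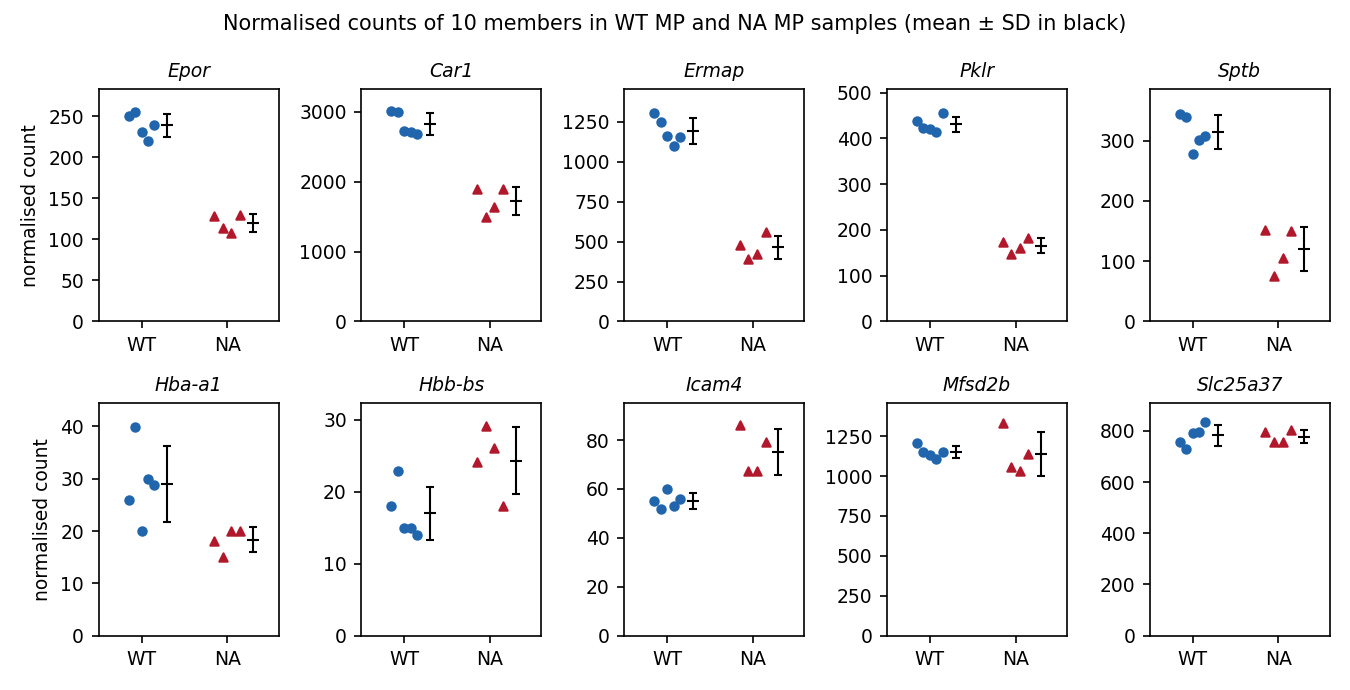
Normalised counts of 10 members in each WT MP sample (circles, n = 5) and NA MP sample (triangles, n = 4), with the mean and SD of each group in black and every vertical axis starting at 0. Epor, Car1, Ermap, Pklr and Sptb are apart between the groups, Hba-a1 and Hbb-bs overlap, Icam4 is higher in NA MPs, and Mfsd2b and Slc25a37 overlap.

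Spectrin, its anchors and its partners form the skeleton under the membrane. All 5 tested skeleton genes were lower past the threshold, 4 of them by more than 2-fold, and their median on the log2 scale was -1.23. Over all tested genes, 1.55% were lower by more than 2-fold past the threshold, and 10 of the 27 tested members were. Sptb, the beta chain of spectrin, was at 151, 76.2, 105 and 150.3 normalised counts in NA MPs and 344, 340.2, 278, 301 and 308 in WT MPs. Its log2 fold change was -1.38 (SE 0.18, edgeR adjusted p = 0.000455), and its highest NA MP sample was far below its lowest WT MP sample. Ank1, the ankyrin that ties spectrin to the anion exchanger, was at 261, 158, 187 and 226 in NA MPs and 516, 524, 494, 441 and 472 in WT MPs. That was a log2 fold change of -1.23 (SE 0.12, edgeR adjusted p = 2.35e-05). Epb42, protein 4.2, which binds ankyrin and the anion exchanger, was low in both groups, at 14, 11, 3.01 and 19 against 25.9, 26.9, 22, 32.9 and 23. The log2 fold change of Epb42 was -1.14 (SE 0.27, edgeR adjusted p = 0.000743). Epb42 is among the 3 members that passed the filter only through WT MPs, and 9 of the other 24 tested members were lower by more than 2-fold.

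Skeleton genes that are also expressed outside the red cell lineage were held in a separate, broad class. Add2, beta adducin, which caps actin and recruits spectrin, was at 155, 107, 107 and 145 normalised counts in NA MPs and 349, 315, 249.5, 279 and 313 in WT MPs, with no overlap. Its log2 fold change was -1.23 (SE 0.13, edgeR adjusted p = 6.94e-06). Epb41, protein 4.1, which strengthens the binding of spectrin to actin, fell only by 0.27 on the log2 scale (SE 0.036, edgeR adjusted p = 2.43e-08), from 1188 ± 35.3 to 984 ± 19.0.

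Blood group and surface genes fell in 5 of 7 cases, each by more than 2-fold. Rhag, the Rh-associated channel for ammonium, was at 85.2, 81.2, 65.2 and 92.2 normalised counts in NA MPs and 219, 223, 204, 214 and 197 in WT MPs. It stood at 38.3% of WT (log2 fold change -1.38, SE 0.09, edgeR adjusted p = 1.14e-17). Rhd, the Rh protein that assembles with Rhag in the membrane, was at 98.3, 84.2, 79.2 and 118 against 264, 241, 228, 196 and 227, a log2 fold change of -1.28 (SE 0.098, edgeR adjusted p = 2.53e-13). Kel, the Kell blood group endopeptidase, fell by 1.16 on the log2 scale (SE 0.088, edgeR adjusted p = 2.08e-15). Tspan33, a tetraspanin of the broad class, was at 83.2, 83.2, 88.3 and 122 in NA MPs and 216, 227, 191, 215 and 239 in WT MPs (log2 fold change -1.20, SE 0.095, edgeR adjusted p = 3.13e-14). None of these 4 genes had a sample of one group within the range of the other.

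Icam4, the Landsteiner-Wiener blood group adhesion protein, was the single member that rose. Its normalised counts were 86.3, 67.2, 67.2 and 79.2 in NA MPs and 54.9, 51.9, 59.9, 52.9 and 55.9 in WT MPs. Every NA MP sample of Icam4 was above every WT MP sample, with a log2 fold change of 0.44 (SE 0.12, edgeR adjusted p = 0.00389, DESeq2 adjusted p = 0.0419). Its exons overlap a gene on the opposite strand, Gm47079, and whether the counting used strand is not stated. Gypc, glycophorin C, which anchors protein 4.1, did not pass (log2 fold change -0.12, SE 0.061, edgeR adjusted p = 0.139), at 391 ± 46.3 and 424 ± 22.2, but passed without NA MP replicate 1 (-0.19, edgeR adjusted p = 0.00972).

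Of the 27 tested members, 19 had every NA MP sample below every WT MP sample, which was so for 12% of all tested genes. Epb42 was among the 19, and 18 of the 24 members that did not pass the filter through WT MPs alone were so.

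**Figure D2:**
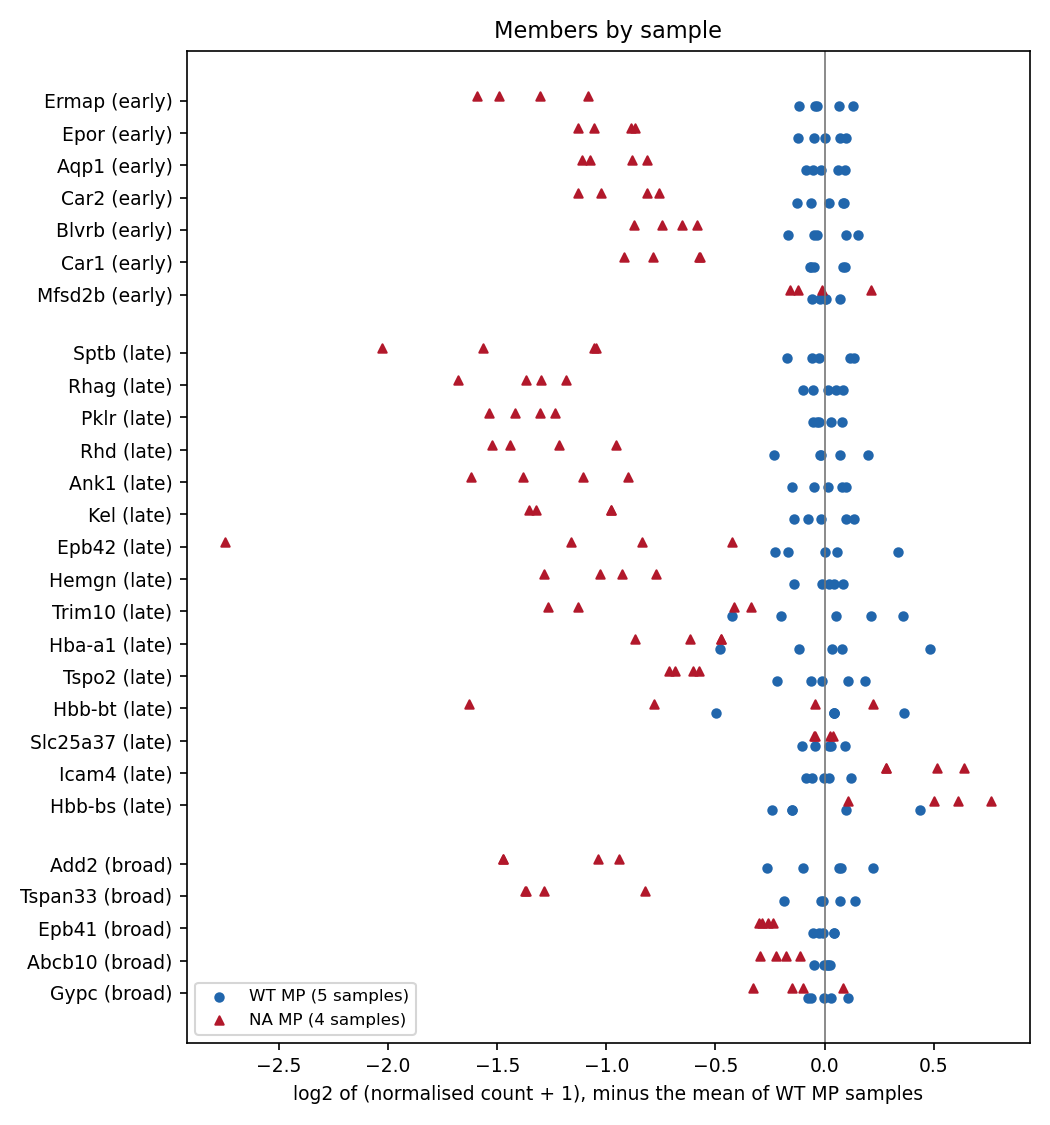
Each tested member in each sample, as the log2 of the normalised count plus 1 minus the mean of the 5 WT MP samples (horizontal axis), with members grouped as early, late or broad (vertical axis). NA MP triangles lie left of all WT MP circles for 19 members and right of them for Icam4.

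Pklr, the pyruvate kinase of red cells and liver, had the smallest adjusted p of the members. It was at 174, 147, 160.5 and 182 normalised counts in NA MPs and 439, 423, 420.2, 415 and 455 in WT MPs, a change of -1.37 on the log2 scale (SE 0.065, edgeR adjusted p = 3.2e-23). Hcn3, which shares exon bases with Pklr on the opposite strand and was looked up for that reason, was also lower: it fell by 1.05 on the log2 scale from 92.4 ± 9.83 to 44.6 ± 8.99, and without strand the reads of the shared bases cannot be assigned to either gene. Plekhg3, which overlaps Sptb in the same way, was at 284 ± 27.9 and 279 ± 8.23. Altogether 8 of the 29 members with a position overlap an exon of another gene.

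The other late genes outside the membrane skeleton and surface fell or did not pass. Hemgn, a nuclear protein of erythroid cells, stood at 131, 102, 122 and 146 normalised counts in NA MPs and 249, 265, 255, 258 and 228 in WT MPs, 50.1% of the WT level and -1.0 on the log2 scale (SE 0.081, edgeR adjusted p = 2.16e-14). Tspo2, an erythroid member of the translocator protein family, fell from 182 ± 19.7 to 116 ± 5.34 (log2 fold change -0.65, SE 0.087, edgeR adjusted p = 2.9e-08). Trim10, a ring finger protein of erythroid cells, was close to the filter on low counts at 13.5 ± 4.67 and 23.6 ± 5.21. The Trim10 groups overlapped, and its call (log2 fold change -0.79, edgeR adjusted p = 0.0103) was lost with DESeq2 (adjusted p = 0.0613) and without NA MP replicate 4 (edgeR adjusted p = 0.0589).

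Slc25a37, mitoferrin, which carries iron into mitochondria for haem synthesis, was at 777 ± 24.4 in NA MPs (SD, n = 4) and 782 ± 40.4 in WT MPs (SD, n = 5). The 95% interval of its log2 fold change ran from -0.093 to 0.076 (edgeR adjusted p = 0.904). Abcb10, the mitochondrial transporter that stabilises mitoferrin, fell by 0.20 on the log2 scale (SE 0.044, edgeR adjusted p = 0.000281), from 678 ± 13.5 to 590.0 ± 31.2. Slc4a1, the anion exchanger of the red cell membrane, ran from 0 to 5.01 normalised counts in NA MPs and from 2.99 to 8.98 in WT MPs, and was not tested.

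Globin genes, the main product of late erythroblasts, were low in both groups. The 4 adult globin genes together took at most 13 CPM in any sample, and Hbb-bh1, Hbb-y, Hba-x and Hbb-bh2, the embryonic and related globins, were at 0 in all 9 samples. Hba-a1 was at 18.1, 15, 20.1 and 20 normalised counts in NA MPs and 25.9, 39.9, 20, 29.9 and 28.9 in WT MPs, where WT MP replicate 3 lay within the range of NA MPs. Its call (log2 fold change -0.66, SE 0.22, edgeR adjusted p = 0.015) was lost with DESeq2 (adjusted p = 0.0812), without NA MP replicate 2 (edgeR adjusted p = 0.055) and without WT MP replicate 2 (edgeR adjusted p = 0.0808).

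The beta globins did not pass. Hbb-bt had a log2 fold change of -0.45 (SE 0.30, edgeR adjusted p = 0.268), and Hbb-bs had one of 0.52 (SE 0.22, edgeR adjusted p = 0.0693). The value of Hbb-bt rested on few counts, and was -0.76 without NA MP replicate 1 and -0.18 without NA MP replicate 2. Copies of a globin share long stretches of transcript, so that reads could be split between them. Of the 50-base windows of Hba-a1, 67.5% occurred in Hba-a2, and of those of Hbb-bs, 65.8% occurred in Hbb-bt. Summed over copies, which avoids that split, alpha globin was at 24.8 ± 2.22 normalised counts in NA MPs (SD, n = 4) and 39.3 ± 7.14 in WT MPs (SD, n = 5), and the groups did not overlap. With the copies summed, a setting chosen after seeing the data, the log2 fold change of alpha globin was -0.66 (edgeR adjusted p = 0.00329). Summed beta globin was at 35.1 ± 4.1 and 31.7 ± 4.75, with overlap (log2 fold change 0.14, edgeR adjusted p = 0.56). All 4 together gave 59.9 ± 2.78 and 71.1 ± 11.3, also with overlap.

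Early and late genes were then set side by side. The 7 early genes, all tested, had a median log2 fold change of -0.93 with 6 lower. The 15 tested late genes had a median of -1.0, with 11 lower, 1 higher and 3 that did not pass. Without Epb42, Trim10 and Hbb-bt, 12 late genes had a median of -1.08, with 9 lower, 1 higher and 2 that did not pass. The early median minus the late median was 0.07, and the difference between the classes varied with an SD of 0.074 between samples. That difference is within the spread between samples, and its sign depended on the settings. It turned to -0.13 with DESeq2, to -0.17 when Icam4, Hemgn, Rhd and Rhag were counted as early, to -0.022 without NA MP replicate 3 and to -0.095 without NA MP replicate 4, and rose to 0.22 without the globins. Values ran from -1.36 to -0.013 in the early class and from -1.38 to 0.52 in the late class. The 5 broad genes had a median of -0.27, with 4 lower.

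**Figure D3:**
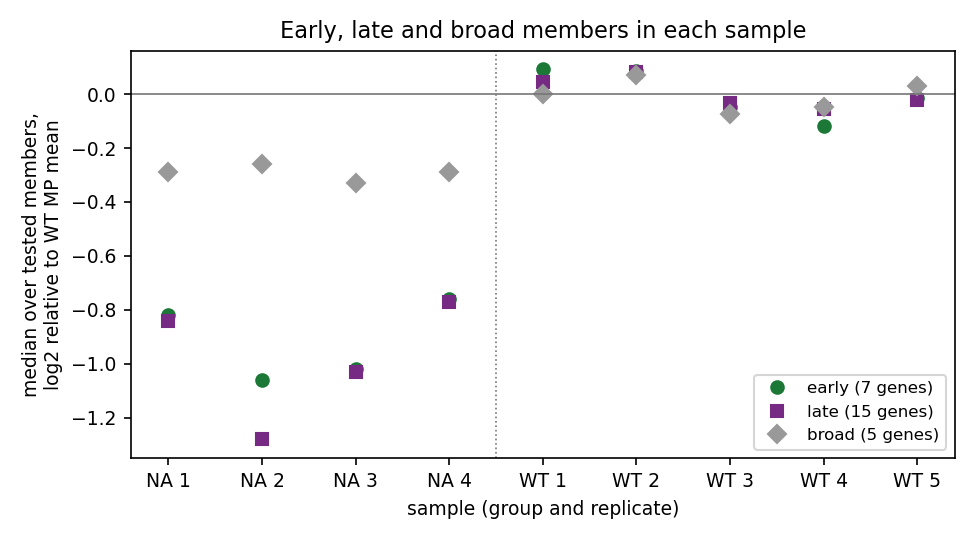
Median over the early (circles), late (squares) and broad (diamonds) tested members in each sample, as log2 relative to the WT MP mean. Early and late medians lie between -0.76 and -1.28 in the 4 NA MP samples and between -0.12 and 0.092 in the 5 WT MP samples.

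Early and late genes were also followed sample by sample. In NA MP replicates 1 to 4 the early median relative to the WT MP mean was -0.82, -1.06, -1.02 and -0.76 on the log2 scale, and the late median was -0.84, -1.28, -1.03 and -0.77. Replicates 2 and 3 were thus the lowest in both classes. Of the 21 members that fell, 13 had their lowest NA MP value in replicate 2 and 11 their highest in replicate 4. Among WT MPs the medians spanned less, from -0.12 to 0.092 for early genes and from -0.057 to 0.083 for late genes. The coefficient of variation had a median of 13% in NA MPs and 6.82% in WT MPs, and was larger in NA MPs for 21 of the 27 tested members. This was not particular to the members. By chi-square over all tested genes, pairs differed by 1.58 to 2.63 times sampling noise in NA MPs and 1.13 to 1.72 in WT MPs.

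Levels of different genes were compared only per kilobase of exon. The length was the union of all annotated exons of a gene, 12147 bases for Sptb and 1248 for Car1. It can exceed the length of the transcripts made in these cells, so the order depends in part on the annotation. In WT MPs the early genes Car1, Car2 and Aqp1 were highest, at 2262, 1106 and 725 normalised counts per kilobase. Epor was at 120.1 and mitoferrin at 129.9. Spectrin and ankyrin genes were lower, with Sptb at 25.9 and Ank1 at 36.2, and Slc4a1 was lowest at 1.1. In NA MPs the same 3 genes led, at 1386, 581 and 371, while Ermap went from 225 to 87.7 and so from just above Mfsd2b, at 223, to well below it, at 221.

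**Figure D4:**
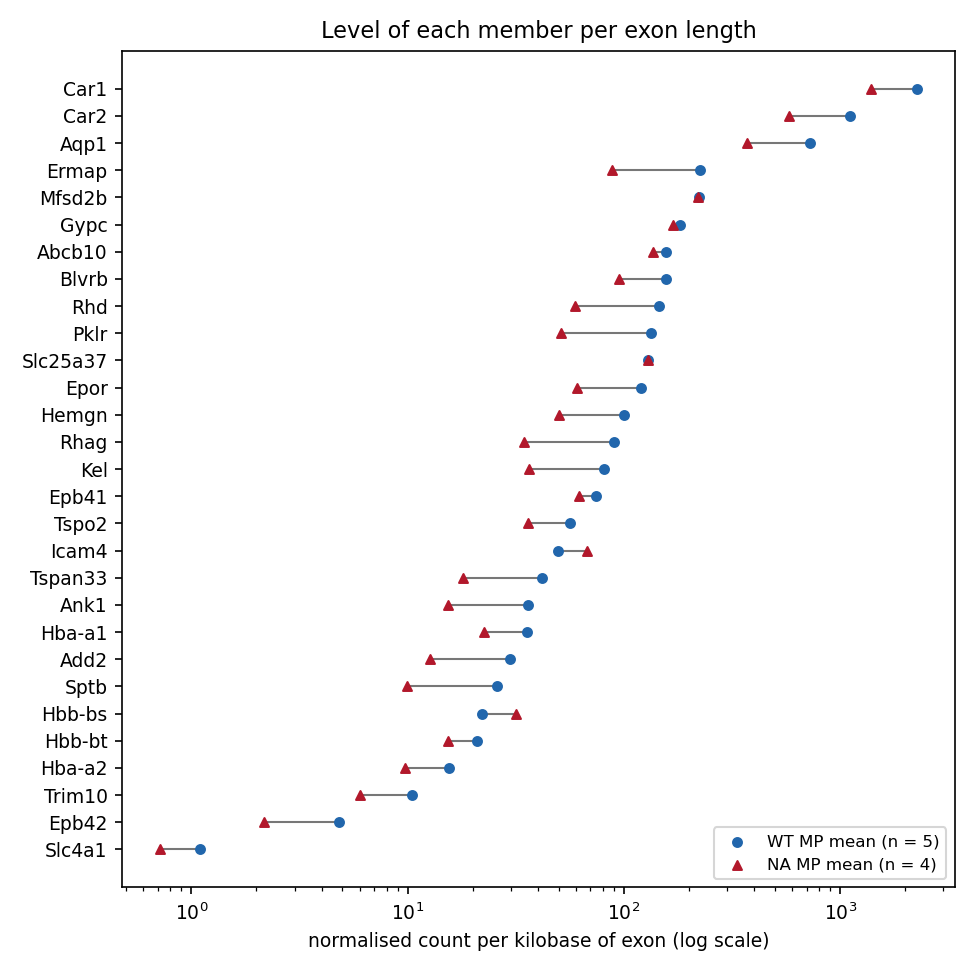
Mean normalised count per kilobase of exon of the 29 counted members in WT MPs (circles, n = 5) and NA MPs (triangles, n = 4), on a log axis and ordered by the WT MP level. Car1 is highest and Slc4a1 lowest in both groups.

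Other red cell membrane genes, which are not members, were followed as a list of 22, of which 20 were tested. Among these, 9 were lower and 2 were higher, with a median log2 fold change of -0.091, beside 16.3% lower and 17.9% higher over all tested genes. Dmtn, dematin, which bundles actin, fell by 1.35 (edgeR adjusted p = 6.23e-05). Epb41l1, a neuronal relative of protein 4.1, rose by 0.90 (edgeR adjusted p = 0.0101, DESeq2 adjusted p = 0.0638), and was at 20.6 ± 4.67 against 11.0 ± 5.6.

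Genes of terminal maturation were followed in the same way. Of 17 tested, 6 were lower and 3 higher, with a median of -0.025. Shares over all tested genes were 16.3% lower and 17.9% higher, and the number higher here was close to its share. Alas2, the erythroid enzyme that begins haem synthesis, was too low to test. Trim58, a ubiquitin ligase of enucleating erythroblasts, fell by 0.53 (edgeR adjusted p = 0.00633), and Fam210b, a mitochondrial protein of erythroid cells, fell by 0.47 (edgeR adjusted p = 0.00136). Ubac1, a subunit of a ubiquitin ligase, fell by 0.42 (edgeR adjusted p = 7.6e-09). E2f2, a cell cycle factor, rose by 0.46 (edgeR adjusted p = 0.000986). Each of these changes was smaller than the median of the members.

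**Figure D5:**
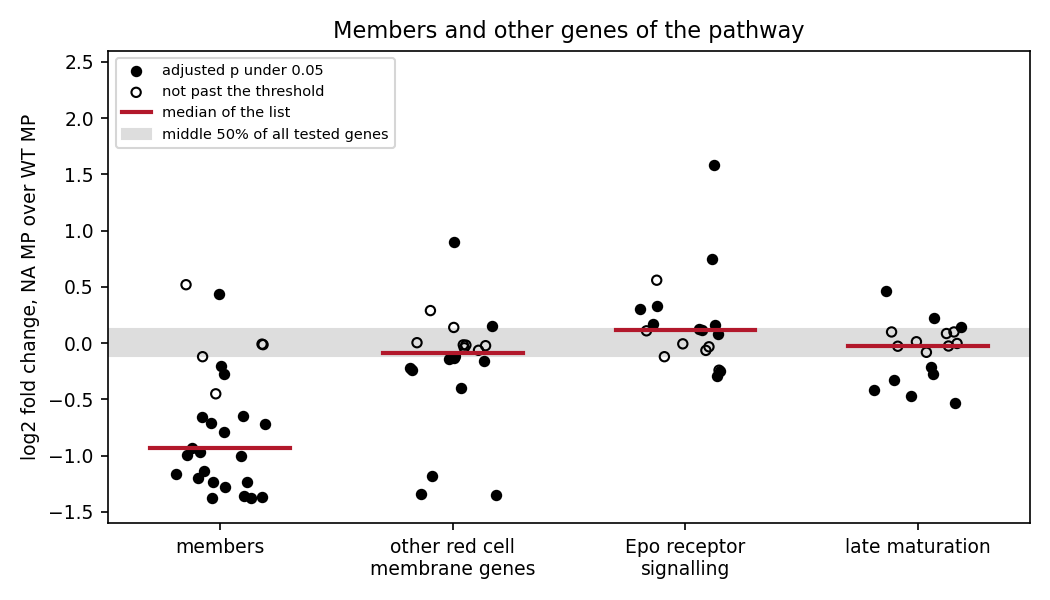
Log2 fold change, NA MPs over WT MPs, of every tested gene of the members (27 genes), other red cell membrane genes (20), erythropoietin receptor signalling (18) and late maturation (17), with filled points past the threshold, the median of each list as a bar and the middle 50% of all tested genes shaded. Most members lie below the shaded band, while the medians of the other lists lie within it.

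Marker genes of other cells were followed in the same samples. The lineage and Sca1 gates were set to remove mature B, T, granulocytic and macrophage cells and stem cells, but not earlier progenitors, mast cells or megakaryocytes. Several of these lists moved with the groups, and their part in the fall of the members was not tested. The counts below stand beside shares of 17.9% higher and 16.3% lower over all tested genes. Neutrophil markers, led by Mpo and Elane, summed to 24037 to 26601 CPM in NA MPs and 23337 to 24260 in WT MPs, with 8 of 10 higher. Monocyte markers summed to 1124 to 1370 and 1161 to 1213 CPM (3 of 8 higher, 2 lower). Markers of erythroblastic island macrophages summed to 184 to 278 and 154 to 168 CPM (9 of 11 higher, 1 lower). Of those 9, 7 rose by more than 2-fold. Vcam1 and Slc40a1, which had the highest counts of the island list and weigh most in its sum, did not rise. Mast cell and basophil markers summed to 569 to 656 and 400.4 to 440.2 CPM (6 of 8 higher, 1 lower), and megakaryocyte markers to 244 to 285 and 260.0 to 286 (1 of 8 higher, 4 lower). B lineage markers summed to 159 to 300.2 CPM in NA MPs and 42.7 to 45.7 in WT MPs, with 10 of 10 higher. T and NK markers summed to 287 to 308 and 249.6 to 272 CPM, nearly all of it from Nkg7, which was at 1963 ± 67.1 and 1745 ± 62.8 normalised counts and was the only one tested (higher). Cd3e and Cd3g were at 0 and Cd3d at no more than 2 normalised counts in any sample, so that sum is not a level of T cells. Stem cell markers summed to 929 to 1042 and 875 to 911 (5 of 7 higher, none lower). Mitochondrial genes took 2.55% to 3% of counts in NA MPs and 2.86% to 3.04% in WT MPs. The members themselves summed to 1404 to 1658 CPM in NA MPs and 2357 to 2604 in WT MPs, without overlap.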

How the data were processed

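The values the authors deposited are RSEM expected counts for every gene in the 9 samples, not normalised between samples. The submitters' processing notes name bcl2fastq, RSEM, DESeq2 and the mm10 build, and versions and the annotation are not given in the sources used here. Ensembl identifiers were paired with symbols for 32916 of 37980 genes. Positions, exon lengths and overlaps came from GENCODE M21 (GRCm38), and promoters from RefSeq.

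After rounding of the counts, the whole table was fitted in edgeR 4.0.16 (R 4.3.3) with TMM normalisation, filterByExpr (minimum count 10), the robust quasi-likelihood test and Benjamini-Hochberg adjustment over 11966 genes. The fit was tested on simulated data. DESeq2 1.42.0, other scalings, filters and thresholds, unrounded counts, each sample left out, summed globin copies (chosen after seeing the data) and other stage classes were alternatives. At 6602851 to 6734284 counts a sample, the common biological coefficient of variation was 3.55%. Pairs of samples differed by 1.58 to 2.63 times sampling noise in NA MPs and by 1.13 to 1.72 times in WT MPs, by chi-square. WT MP pairs without replicate 1 were at 1.13 to 1.24, so these WT MP samples varied little beyond sampling noise.

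The members and gene lists were chosen with earlier results of these data known. Early, late and broad classes were assigned from general knowledge of erythroid stages. Values of every sample are printed for Epor, for the 5 genes with the largest change past the threshold in the early and the late class and the 2 in the broad class, and for any member that was higher. Those of Epb42, Hemgn and Hba-a1 were added after they were seen, and Hcn3 and Plekhg3 were looked up for their overlap. Other lists are described by up to 4 of their largest changes past the threshold, of which some are not reported here, and marker lists by their sums.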

Additional observations from a re-analysis of the deposited data

Results flagged for a closer look

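Tspan33 in NA MP replicate 4 stood apart from the other NA MP samples, at 122 normalised counts against 83.19 to 88.26. It stayed below every WT MP sample. Among 62 groups looked at in this way, chance would set about 3.1 samples apart, and 1 was found.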

How the results depend on the processing

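Of the 21 members that were lower, 19 stayed lower past the threshold in every alternative that tested them, the exceptions being Hba-a1 and Trim10. The alternatives made 22 other settings, and only those with a new fit compared named genes, 16 to 18 for each gene. In these 659 comparisons, 632 kept their direction and side of the threshold. A further 16 lost a call, 3 gained one and 8 changed sign. The median of the late genes was -0.80 with DESeq2, -0.80 with no filter and -0.79 with Icam4, Hemgn, Rhd and Rhag counted as early. The early minus late difference of medians was -0.13 with DESeq2, -0.13 with no filter, 0.15 with at least 10 counts in every sample, -0.17 with those 4 genes as early, 0.18 with broad genes counted as early, where 10 of the early genes were lower, 0.22 without globins, and -0.095 to 0.11 when 1 sample was left out. The cause was not tested. Higher members numbered 1 to 2 without 1 sample, the second being Hbb-bs without NA MP replicate 4 or WT MP replicate 2. Higher genes of erythropoietin signalling numbered 5 with library size alone and 5 at an adjusted p under 0.01, and higher genes of the other membrane list numbered 1 with DESeq2, with 10 counts in every sample and at an adjusted p under 0.01. Values near 0 changed sign. Mfsd2b lay between -0.1 and 0.032, and Slc25a37 lay between -0.033 and 0.015 without 1 sample. The sum of Hbb-bt and Hbb-bs was at 0.14, which was counted above as a sign change of Hbb-bt. Hbb-bt alone stayed negative in every setting. Replicate numbers do not pair the samples: deviations of equal numbers correlated by -0.0235 to 0.0558. With the number as a replicate block and without WT MP replicate 5, 21 members were lower and 1 higher, Epor was at -0.99 and Slc25a37 at 0.016. Depth limits the globins, Slc4a1 and Epb42, which had few counts in every sample.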
